A study of Mus musculus with 6 samples.

Results

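The genes described here are Rnaseh2a, Rnaseh2b, Rnaseh2c, Trex1, Samhd1, Adar and Ifih1, the mouse counterparts of human Aicardi-Goutieres syndrome genes, together with Rnaseh1. They were taken by name, and all 8 were found by their Ensembl identifiers among the 38924 genes of the count table. RNA was sequenced from 6 libraries of CD49f+ epidermal cells, which were sorted by flow cytometry from mouse skin. CD49f, or integrin alpha 6, is found on the surface of the basal layer. All 6 libraries were Rnaseh2b flox/flox, so the controls carried the floxed alleles too. The Cre-positive group was K14-Cre+ (n = 3) and the Cre-negative group was K14-Cre- (n = 3). In K14-Cre the recombinase is driven by the keratin 14 promoter, which is active in basal keratinocytes, and cell types without activity of that promoter are not its target. The exons flanked by loxP sites, the age of the mice, and whether each library is a separate animal are not stated in the labels. Libraries with high Xist and libraries with high Y-linked counts occurred in both groups, so neither group came from a single animal. The sexes were not balanced between the groups. Xist was high in Cre-positive replicate 3 and in Cre-negative replicates 1 and 3. Y-linked counts were high in Cre-positive replicates 1 and 2 and in Cre-negative replicate 2. Traits of Cre-positive replicate 3 therefore cannot be told apart from sex within its group.

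Aicardi-Goutieres syndrome is an inherited inflammatory disease with raised type I interferon signalling. RNase H2 is a complex of a catalytic subunit, RNASEH2A, with the subunits RNASEH2B and RNASEH2C; it cuts the RNA strand of RNA-DNA hybrids and starts ribonucleotide excision repair, the removal of single ribonucleotides that DNA polymerases build into DNA. RNase H1 is a separate enzyme that cuts longer RNA-DNA hybrids and is not among the disease's known genes. TREX1 degrades cytosolic DNA from its 3′ ends, SAMHD1 hydrolyses deoxynucleotide triphosphates, ADAR edits adenosine to inosine in double-stranded RNA, and IFIH1, also known as MDA5, senses long double-stranded RNA. The last is a sensor upstream of interferon, and both Ifih1 and Adar are themselves known to be induced by interferon.

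The libraries held 23186065 to 31718094 counts in the Cre-positive group and 22948779 to 25362538 in the Cre-negative group. By the quasi-likelihood test of edgeR, 80 of 15525 genes passed an adjusted p of 0.05, which is 0.515% (63 higher and 17 lower in Cre-positive cells). The groups did not overlap for 4343 genes, or 28%. Both keratinocyte marker lists were present in every library, and the summed level of the 10 basal markers was 17475 to 19721 CPM (counts scaled to library size) in Cre-positive and 17717 to 20018 CPM in Cre-negative cells. Cre-positive replicates 1 and 3 stood apart in different ways. Replicate 1 had the highest fibroblast marker sum (8 genes, 1986 CPM, against 599 and 673 CPM in Cre-positive replicates 2 and 3 and 521 to 1270 CPM in Cre-negative cells). Replicate 3 had the highest level of 7 of 7 suprabasal keratinocyte markers tested, summing to 149051 CPM against 108438 and 130120 CPM in Cre-positive replicates 1 and 2 and 86518 to 108592 CPM in Cre-negative cells.

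Rnaseh2b, the targeted gene, fell in Cre-positive cells, where its mean was 19.6% of that in Cre-negative cells. In mm10 it lies at chromosome 14, 62292589-62372992 (plus strand), with 11 counted exon blocks of 6243 bases in total. It had 172, 90 and 69 counts in Cre-positive replicates 1, 2 and 3, against 543, 504 and 570 counts in Cre-negative replicates 1, 2 and 3. The normalised levels were 5.29, 3.98 and 3.28 CPM in the Cre-positive libraries, against 21.8, 20.7 and 21.7 CPM in the Cre-negative libraries. The Cre-positive libraries were all far below the lowest Cre-negative one, and the groups did not overlap. The log2 fold change was -2.34 (SE 0.17, 95% interval -2.74 to -1.94, edgeR adjusted p = 0.0102), or a level 0.198-fold that of Cre-negative cells (interval 0.150 to 0.261). The call ended without Cre-positive replicate 2 (adjusted p = 0.0508) or any 1 Cre-negative library (0.0841 to 0.124), while the log2 fold change stayed between -2.55 and -2.19. It was the 1 member called among 7 tested, against 0.515% of all genes called in either direction, 0.406% higher and 0.11% lower; being the targeted gene, it serves as a check of the labels.

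The residual Rnaseh2b mRNA differed among the Cre-positive libraries. As a share of the Cre-negative mean it was 24.7% in replicate 1, 18.6% in replicate 2 and 15.3% in replicate 3. The exact Poisson 95% interval of the level was 4.53 to 6.14 CPM in replicate 1, 3.20 to 4.90 CPM in replicate 2 and 2.55 to 4.15 CPM in replicate 3, which covers counting error only. The intervals of replicates 1 and 3 did not overlap, whereas the Cre-negative libraries stood at 96.8% to 102% of their mean. In sorted bulk cells, a smaller share of cells that keep a gene and less of its mRNA per cell cannot be told apart, and since counts were summed over the gene, transcripts that lost the floxed exons can still be counted through their other exons. The highest residue was in the library with the highest fibroblast and endothelial marker sums; the endothelial sum (8 genes) was 31.96, 4.82 and 3.85 CPM in Cre-positive replicates 1, 2 and 3, against 5.17, 11.7 and 29.9 CPM in Cre-negative replicates 1, 2 and 3. The 8 melanocyte markers summed to 774, 778 and 682 CPM in Cre-positive cells, against 381, 442 and 401 CPM in Cre-negative cells. The part of these cells in the residue was not tested.

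**Figure D1:**
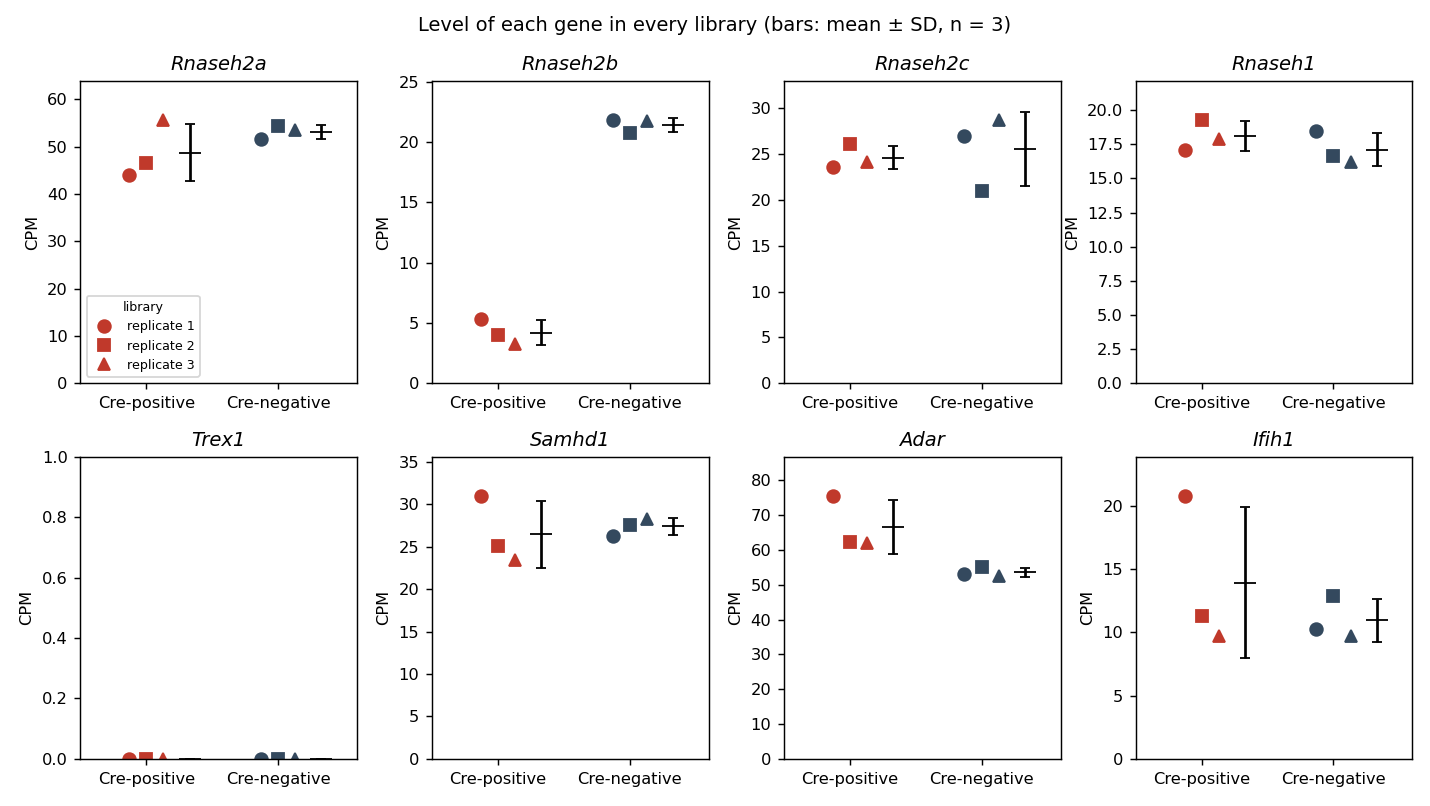
Level of each of the 8 genes in every library, in CPM (linear axis from 0, a separate scale for each gene); Cre-positive libraries are on the left in red and Cre-negative libraries on the right in blue, with marker shapes for replicates 1 to 3 and black bars for the mean ± SD (n = 3). Rnaseh2b is lower in all 3 Cre-positive libraries, Adar is higher in all 3, Ifih1 is high in Cre-positive replicate 1, and Trex1 is at 0 throughout.

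The other subunits of RNase H2 did not pass the test. Rnaseh2a, which encodes the catalytic subunit (chromosome 8, 84956610-84969767, minus strand), had 44.1, 46.6 and 55.5 CPM in Cre-positive libraries, against 51.5, 54.4 and 53.4 CPM in Cre-negative libraries. Cre-positive replicate 3 was the highest of all 6 libraries and replicates 1 and 2 the lowest, so the groups overlapped. Its log2 fold change was -0.12 with an interval of -0.35 to 0.10 (SE 0.10, edgeR adjusted p = 0.513). Rnaseh2c, which encodes the other auxiliary subunit (chromosome 19, 5601873-5603439, plus strand), had 23.6, 26.1 and 24.1 CPM in Cre-positive libraries, against 26.9, 20.99 and 28.7 CPM in Cre-negative libraries. All Cre-positive values lay inside the Cre-negative range, and the log2 fold change was -0.05 (SE 0.12, interval -0.35 to 0.24, edgeR adjusted p = 0.843); it turned to 0.02 with sex as a covariate and to 0.04 without Cre-negative replicate 3. In linear terms the intervals run from 0.783 to 1.07 times the Cre-negative level for Rnaseh2a and from 0.787 to 1.18 times for Rnaseh2c. On the opposite strand, exons of Kat5 cover 29.1% of the counted exon bases of Rnaseh2c, and exons of Prdx2 cover 5.04% of those of Rnaseh2a.

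The balance of subunit mRNAs within a library does not depend on how libraries are scaled to each other. The size of each ratio does depend on the gene length used, while the difference between the groups does not. Divided by main transcript length, the Cre-negative means were 14.3 RPKM (CPM per kilobase) for Rnaseh2b, 17.8 for Rnaseh2a and 33.1 for Rnaseh2c. On counts per kilobase of counted exon, the log2 ratio of Rnaseh2b to Rnaseh2a was -3.89, -4.38 and -4.91 in Cre-positive replicates 1, 2 and 3, against -2.07, -2.22 and -2.13 in Cre-negative replicates 1, 2 and 3. The groups did not overlap, and their means differed by -2.25. The log2 ratio of Rnaseh2b to Rnaseh2c was -4.26, -4.81 and -4.98 in Cre-positive libraries, against -2.41, -2.12 and -2.50 in Cre-negative libraries, a difference of -2.34. The log2 ratio of Rnaseh2a to Rnaseh2c was -0.37, -0.43 and -0.07 in Cre-positive libraries, against -0.33, 0.10 and -0.37 in Cre-negative libraries, which overlap and differ by -0.09. Exact permutation tests over the libraries, two-sided, gave p = 0.1, 0.1 and 0.6 for the 3 ratios in this order (0.15, 0.15 and 0.6 after Benjamini-Hochberg adjustment over the 3); 0.1 is the smallest p that 3 libraries against 3 allow, so no ratio could pass a threshold of 0.05.

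**Figure D2:**
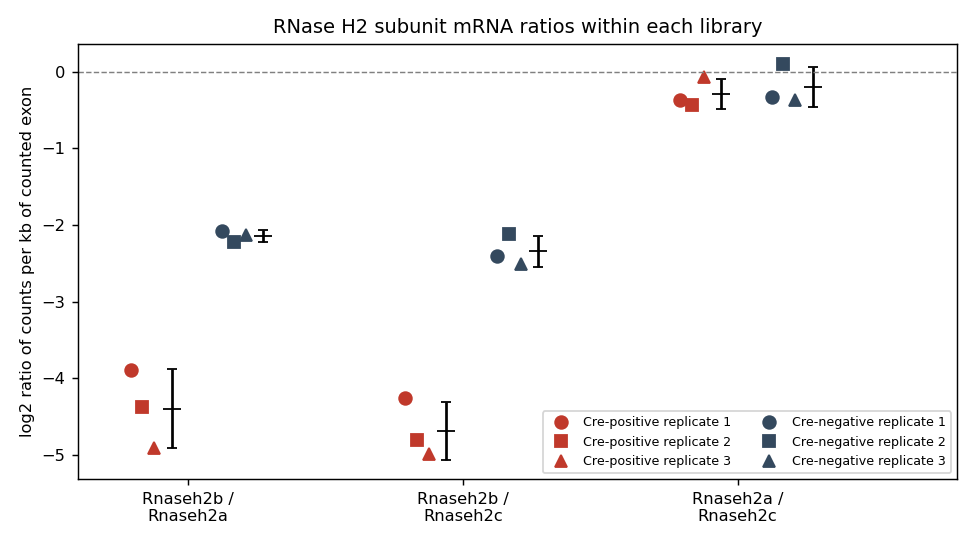
Log2 ratios between the mRNAs of the RNase H2 subunits within each library, from counts per kilobase of counted exon; Cre-positive libraries (red) stand left of Cre-negative ones (blue) for each ratio, shapes mark the replicates, and black bars give the mean ± SD (n = 3). Both ratios with Rnaseh2b on top are lower in every Cre-positive library, by -2.25 and -2.34 on average, and the ratio of Rnaseh2a to Rnaseh2c overlaps between the groups.

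Rnaseh1, the gene of the separate RNase H (chromosome 12, 28649602-28659591, plus strand), had 17.1, 19.3 and 17.9 CPM in Cre-positive libraries, against 18.5, 16.6 and 16.2 CPM in Cre-negative libraries. The groups overlapped. The log2 fold change was 0.08 (SE 0.09, interval -0.14 to 0.29, edgeR adjusted p = 0.665), and it was -0.03 under scaling by total count, where the median of all genes shifted by -0.11. The interval reaches 1.23 times the Cre-negative level at its upper end.

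Trex1 (chromosome 9, 109057933-109060338, minus strand) was listed at 0 counts in all 6 libraries, and no level of it can be read from this table. All 1314 of its counted exon bases are also exon bases of Atrip, the gene of a partner of the checkpoint kinase ATR, on the same strand. Every one of the 482 genes of the table whose exon bases are wholly shared with other genes on the same strand was at 0 in all 6 libraries, 50 of 50 protein-coding genes included. Of 206 genes wholly covered by exons on the opposite strand, with none on the same, 85 were at 0 in all libraries (41.3%). That share was close to the 40.9% of the 31444 genes that share no exon base. Counts of Atrip, which shares 25.8% of its own exon bases with Trex1, were 506, 361 and 355 in Cre-positive libraries, against 373, 426 and 396 in Cre-negative libraries. Its groups overlapped in CPM, and the log2 difference was 0.03 (edgeR adjusted p = 0.909, SE 0.10).

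The shared stretch includes the whole Trex1 reading frame. In the GENCODE M21 annotation of GRCm38, the build of mm10, the 945 coding bases of Trex1 at chr9:109057977-109058921 occur letter for letter in 2 of 9 Atrip transcripts, Atrip-204 and Atrip-205. The first 60 of them (chr9:109058862-109058921, minus strand) are shown because a read from these letters fits both genes, with the start codon in capitals.
Trex1 and Atrip-204: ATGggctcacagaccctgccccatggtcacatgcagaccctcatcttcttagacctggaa

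**Figure D3:**
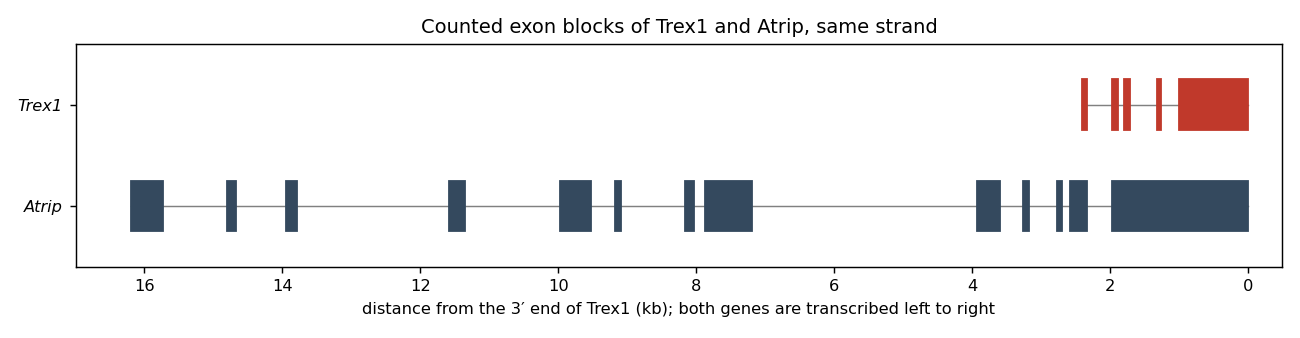
Counted exon blocks of Trex1 (red, above) and Atrip (blue, below) drawn to scale, with the distance in kilobases from the 3′ end of Trex1 on the horizontal axis and transcription running left to right. Each Trex1 block lies over an Atrip block, so all 1314 exon bases of Trex1 are shared.

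Samhd1 (chromosome 2, 157097533-157135265, minus strand) had 30.9, 25.05 and 23.4 CPM in Cre-positive libraries, against 26.3, 27.6 and 28.3 CPM in Cre-negative libraries. Cre-positive replicate 1 was the highest of all libraries and replicates 2 and 3 the lowest. The log2 fold change was -0.05 (SE 0.11, interval -0.32 to 0.22, edgeR adjusted p = 0.849), and without Cre-positive replicate 3 it was 0.04.

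Adar was the other member whose groups did not overlap, but it did not pass the threshold. The gene (chromosome 3, 89715022-89753446, plus strand) had 2454, 1404 and 1305 counts in Cre-positive libraries, against 1324, 1340 and 1377 counts in Cre-negative libraries. Scaled to library size these were 75.4, 62.1 and 62.0 CPM in Cre-positive libraries, against 53.1, 55.0 and 52.4 CPM in Cre-negative libraries. All 3 Cre-positive libraries were above all 3 Cre-negative ones, with replicate 1 the highest. The log2 fold change was 0.31 (SE 0.09, interval 0.10 to 0.53), with an unadjusted p of 0.0114 and an edgeR adjusted p of 0.170. Without Cre-positive replicate 1 it was 0.21 (edgeR adjusted p = 0.185). Over all 14 alternative fits it stayed between 0.21 and 0.36, with adjusted p between 0.0783 and 0.458. Adar and Rnaseh2b were the 2 of 7 tested members without overlap between the groups, against 28% of all genes, and the 2 with an unadjusted p under 0.05, against 18.8% of all genes.

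Ifih1 (chromosome 2, 62595798-62646255, minus strand) was high in 1 Cre-positive library. It had 20.7, 11.3 and 9.74 CPM in Cre-positive replicates 1, 2 and 3, against 10.2, 12.9 and 9.74 CPM in Cre-negative replicates 1, 2 and 3. Cre-positive replicate 1 stood at 190% of the Cre-negative mean, and the other Cre-positive libraries lay within or just at the edge of the Cre-negative range. The log2 fold change was 0.36 (SE 0.29, interval -0.31 to 1.03, edgeR adjusted p = 0.521). It was -0.06 (SE 0.16) without Cre-positive replicate 1 and 0.15 (SE 0.25) with sex as a covariate. The summed level of 30 interferon-stimulated genes followed the same order of libraries within the Cre-positive group. It was 400, 263 and 225 CPM in replicates 1, 2 and 3, against 222, 263 and 229 CPM in Cre-negative replicates 1, 2 and 3. Cre-positive replicates 1 and 2 and Cre-negative replicate 2 had high Y-linked counts. Each of them lay above every library with high Xist, both in Ifih1 and in this sum. Of these 30 genes, 26 had their highest level of all 6 libraries in Cre-positive replicate 1, against 14.2% of all genes tested. The same was true of 7 of 8 fibroblast markers, while Cre-negative replicate 3, with a fibroblast sum of 1270 CPM, had 9.74 CPM of Ifih1. The parts of other cell types and of sex in the Ifih1 level of replicate 1 were not tested.

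**Figure D4:**
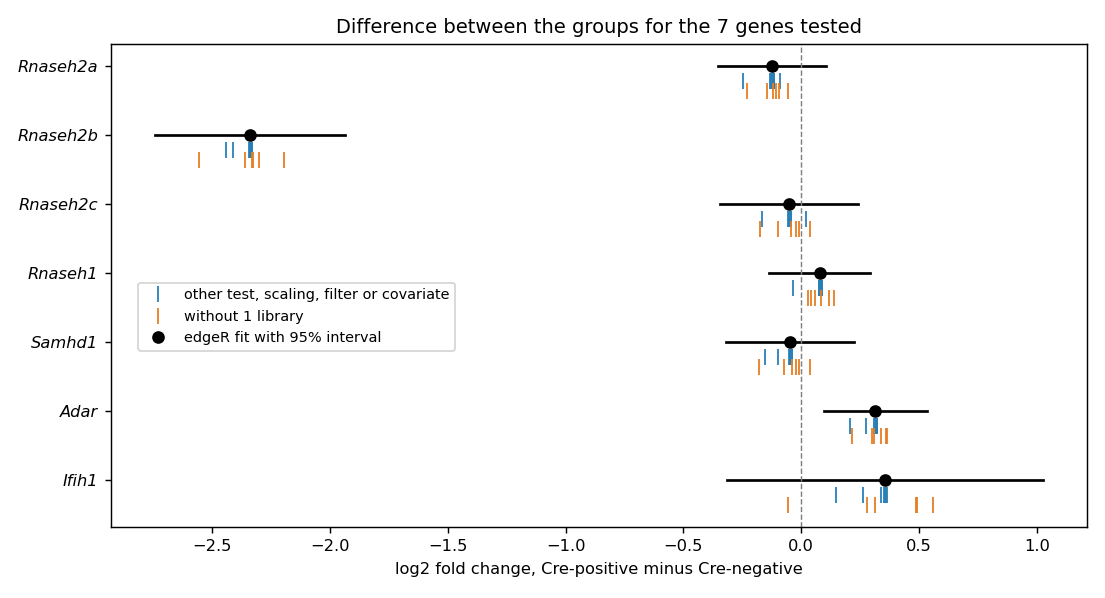
Log2 fold change (Cre-positive minus Cre-negative) of the 7 genes tested, with black points and lines for the edgeR estimate and its 95% interval, blue ticks for other tests, scalings, filters or the sex covariate, and orange ticks for fits without 1 library. Rnaseh2b lies at -2.34, the interval of Adar (0.10 to 0.53) lies above 0, and Ifih1 moves to -0.06 without Cre-positive replicate 1.

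The start-site regions of Ifih1 and Adar are shown because these genes belong to the RNA sensing and editing pathway and each held 1 of the motifs searched. RefSeq windows on GRCm38.p6, from 250 bases before to 50 bases after a start site, were available for 6 of the 8 genes in 9 windows; those of Rnaseh2b and Rnaseh1 were not used here. Each was searched on both strands for GAAANNGAAA, a core of the interferon-stimulated response element, and for TTCNNNGAA, the gamma-activated site bound by STAT dimers; no member window held both motifs. GAAANNGAAA was found in 1 of 6 members, Ifih1, starting 32 bases after the start site. It was found in 13 of 22 interferon-stimulated genes with a window (59.1%) and in 3.99% of all 27025 genes with a window. TTCNNNGAA was found in Samhd1, Adar and Rnaseh2a, in 5 of 22 interferon-stimulated genes and in 9.55% of all genes with a window. Only exact matches were counted. Near matches are not marked, such as a stretch of the Adar window that differs from GAAANNGAAA in its last base. In the sequences, capitals mark GAAANNGAAA in Ifih1 (chr2:62646206-62646505, minus strand) and TTCNNNGAA in the Adar window at chr3:89730468-89730767 (plus strand), 1 of 3 Adar start sites listed; a match is a description of letters and not a bound site.
Ifih1: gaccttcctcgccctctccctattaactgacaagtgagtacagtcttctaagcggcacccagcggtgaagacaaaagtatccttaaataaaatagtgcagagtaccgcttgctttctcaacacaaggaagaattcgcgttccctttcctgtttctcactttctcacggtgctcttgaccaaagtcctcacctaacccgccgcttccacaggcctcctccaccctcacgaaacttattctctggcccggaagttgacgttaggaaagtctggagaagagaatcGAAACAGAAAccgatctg
Adar: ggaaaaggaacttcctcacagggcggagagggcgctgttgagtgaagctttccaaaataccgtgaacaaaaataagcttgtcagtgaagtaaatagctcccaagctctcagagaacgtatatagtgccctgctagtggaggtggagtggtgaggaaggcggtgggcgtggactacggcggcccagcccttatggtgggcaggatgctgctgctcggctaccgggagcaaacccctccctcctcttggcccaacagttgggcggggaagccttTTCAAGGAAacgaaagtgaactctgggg

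The order of the mRNA levels was set by RPKM, that is, CPM per kilobase of counted exon, which allows genes to be compared. In Cre-negative cells the means were 17.5 ± 2.76 RPKM for Rnaseh2c, 15.1 ± 0.412 for Rnaseh2a, 11.7 ± 0.832 for Rnaseh1, 7.89 ± 0.201 for Adar, 3.43 ± 0.0960 for Rnaseh2b, 2.99 ± 0.109 for Samhd1 and 1.34 ± 0.205 for Ifih1 (SD, n = 3). Among neighbours in this order only Rnaseh2c and Rnaseh2a overlapped between libraries. In Cre-positive cells Rnaseh2b was the lowest of the 7, at 0.670 ± 0.163 RPKM, below Ifih1 at 1.71 ± 0.730 RPKM. The place of Rnaseh2b rests on the length used. Divided by the length of its main coding transcript (1494 bases, against 6243 counted exon bases), it stood at 2.80 RPKM in Cre-positive cells, above Ifih1 at 2.55 RPKM on the same basis (the libraries overlapped), and at 14.3 RPKM in Cre-negative cells, where it moved to the third place between Rnaseh2a at 17.8 and Rnaseh1 at 11.8 RPKM.

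Genes were ranked by how closely their level followed that of Rnaseh2b across the libraries. Among 9417 genes with a mean of at least 10 CPM, the 5 with the highest Pearson correlation of log2 CPM with Rnaseh2b over the 6 libraries were Cxcr4, Plppr3, Nbl1, Ddx42 and Gtf2i, with r of 0.992 to 0.9998. Since the libraries form 2 groups that are far apart in Rnaseh2b, r carries the gap between the groups and is given as a description. Genes picked by such an r differ between the groups through that choice. The edgeR values of these 5 genes are therefore descriptions too and not a separate test. Cxcr4, the gene of a chemokine receptor, had 18.1, 16.4 and 15.5 CPM in Cre-positive libraries, against 29.8, 29.4 and 29.4 CPM in Cre-negative libraries. It fell by 0.83 on the log2 scale (edgeR adjusted p = 0.0181, SE 0.08). Cxcr4 is expressed by many leukocytes, and markers of these cells differed in direction. The 7 T cell markers summed to 23.8, 19.1 and 29.5 CPM in Cre-positive libraries, against 34.0, 29.4 and 33.03 CPM in Cre-negative libraries. Of the 6 T cell markers tested 5 had an unadjusted p under 0.05 in edgeR, all lower, against 8.48% of all genes. EdgeR and limma-voom called 0 of them and DESeq2 called 3 lower, against 1.82% of all genes. The median was -1.14. Thy1, which weighs heavily in the sum, averaged 17.6 CPM in Cre-positive and 18.4 CPM in Cre-negative libraries (log2 fold change -0.07). Of the class II genes of Langerhans and myeloid cells, H2-Ab1 fell by 2.29 on the log2 scale (edgeR adjusted p = 0.0400) and Cd74 had -2.42 (edgeR adjusted p = 0.0572). On the same marker list, Lyz2 rose by 1.33 (edgeR adjusted p = 0.0368). Of the 9 markers of this list tested, 3 had log2 fold changes above 0 and 6 below, with a median of -0.07. The part of these cells in the Cxcr4 difference was not tested. Plppr3 (-0.98, SE 0.10, adjusted p = 0.0181) and Nbl1 (-0.62, SE 0.08, adjusted p = 0.0378) fell as well in edgeR. The calls of Cxcr4 and Plppr3 were lost without Cre-positive replicate 2 or any 1 Cre-negative library, with adjusted p of 0.0965 to 0.156, and that of Nbl1 was lost in 5 of 6 such fits and with scaling by total count (adjusted p = 0.0866). Ddx42 (-0.16, edgeR adjusted p = 0.240) and Gtf2i (-0.44, edgeR adjusted p = 0.0598) did not pass. Among the members the correlations were weaker, from 0.40 for Rnaseh2a and 0.38 for Samhd1 to -0.50 for Rnaseh1 and -0.76 for Adar.

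The genes that flank Rnaseh2b on chromosome 14 were measured in the same fit. Fam124a, the nearest tested gene to its right, 182745 bases away, had 3.66, 5.49 and 3.23 CPM in Cre-positive libraries, against 1.32, 1.73 and 1.52 CPM in Cre-negative libraries. The groups did not overlap, and the log2 fold change of 1.43 (SE 0.25) had an edgeR adjusted p of 0.0739, which was 0.0273 without Cre-positive replicate 3 and 0.0497 with no filter on low counts; DESeq2 gave an adjusted p of 0.000451, and the highest over the alternatives was 0.321. For Dleu2, the nearest tested gene to its left, 610216 bases away, the log2 difference was -0.41 (edgeR adjusted p = 0.353, SE 0.22). Within 2 Mb on each side, edgeR and limma-voom called 0 of 28 genes tested and DESeq2 called 3, against 5.39% of all genes. In edgeR 9 of the 28 had an unadjusted p under 0.05, against 18.8% of all genes. Of the 28, 8 had such a p and were higher in Cre-positive cells, against 10.3% of all genes. The groups did not overlap for 11 of the 28, against 28% of all genes. The floxed allele was present in both groups, and the cause of the differences around Rnaseh2b was not tested. Over the 19 nearest or overlapping genes of all members, edgeR and limma-voom called 0, DESeq2 called 3, and 3 had an unadjusted p under 0.05 in edgeR. Besides Fam124a these were Junb, an AP-1 transcription factor gene 7142 bases from Rnaseh2a, with 217 CPM in Cre-positive and 143 CPM in Cre-negative cells on average (log2 difference 0.60, edgeR adjusted p = 0.0793, 0.0190 without Cre-positive replicate 3 and up to 0.335 over the alternatives), and Shisa5, a gene 209 bases from Trex1, with 78.0 CPM in Cre-positive and 59.1 CPM in Cre-negative cells on average (log2 difference 0.40, edgeR adjusted p = 0.143).

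Genes whose products act next to the members were read in 8 lists, in which edgeR and limma-voom each called 0 genes. The numbers with an unadjusted p under 0.05 in edgeR and those called by DESeq2 are given with each list. Some genes stand in several lists, among them Isg15, Stat2, Ddx58 and Tmem173, so the lists are not separate from each other. Over all 15525 genes, 18.8% had such a p (10.3% higher and 8.48% lower), DESeq2 called 5.39% (3.57% higher and 1.82% lower), limma-voom called 0.425%, and 49% had a log2 fold change above 0. The list of 18 ribonucleotide excision repair partners and topoisomerase 1 (clamp loader, polymerase delta and epsilon subunits, flap nuclease and ligase) had 17 log2 fold changes below 0 and a median of -0.19, against -0.005 over all genes. In edgeR 2 of the 18 had an unadjusted p under 0.05, both lower, against 8.48% of all genes, and DESeq2 called 0. Pold1, the catalytic subunit of polymerase delta, had 37.8, 37.0 and 30.3 CPM in Cre-positive libraries, against 50.5, 41.0 and 51.3 CPM in Cre-negative libraries (log2 fold change -0.44, SE 0.12, edgeR adjusted p = 0.156). Lig1, DNA ligase 1, had 69.8, 68.9 and 42.2 CPM in Cre-positive libraries, against 83.6, 77.1 and 85.6 CPM in Cre-negative libraries (log2 fold change -0.44, SE 0.18, edgeR adjusted p = 0.257). Both did not overlap between the groups, and Cre-positive replicate 3 was the lowest library for 15 of the 18 genes, against 31.1% of all genes; without it the median was -0.07 and the log2 difference of Lig1 was -0.24.

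The list of deoxynucleotide supply genes concerns the nucleotides that SAMHD1 hydrolyses, and its genes were lowest in the same library. All 11 genes had log2 fold changes below 0, with a median of -0.22, and for all 11 Cre-positive replicate 3 was the lowest library; without it the median was -0.10. Dguok, a mitochondrial deoxynucleoside kinase, had 8.61, 8.76 and 8.17 CPM in Cre-positive libraries, against 11.7, 10.97 and 10.9 CPM in Cre-negative libraries (log2 fold change -0.40, SE 0.10, edgeR adjusted p = 0.128). Dctpp1, a deoxycytidine triphosphate pyrophosphatase gene, had -0.38 (SE 0.13, edgeR adjusted p = 0.198) and overlapping groups. Of the 11, 2 had an unadjusted p under 0.05 in edgeR, both lower, against 8.48% of all genes, and DESeq2 called 0.

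Among 12 of 14 other DNases and RNases that were tested, 9 had log2 fold changes below 0 and the median was -0.11. In edgeR 3 had an unadjusted p under 0.05 (2 higher and 1 lower), against 18.8% of all genes. DESeq2 called 2 higher, Trex2 and Dnase1l3, against 3.57% of all genes, and 0 lower. Trex2, the 3′ exonuclease related to Trex1 and abundant in keratinocytes, had 78.5, 83.3 and 151 CPM in Cre-positive libraries, against 65.4, 53.9 and 64.85 CPM in Cre-negative libraries (log2 fold change 0.76, SE 0.25, edgeR adjusted p = 0.190). Dnase1l3, a secreted DNase gene, had 55.7, 60.2 and 109 CPM in Cre-positive libraries, against 42.3, 44.6 and 35.8 CPM in Cre-negative libraries (log2 fold change 0.87, SE 0.25, edgeR adjusted p = 0.166). Neither overlapped between the groups, and both were highest in Cre-positive replicate 3, the library with the highest suprabasal keratinocyte markers; the part of that difference in these values was not tested. Without that library the log2 difference was 0.40 for Trex2 and 0.50 for Dnase1l3.

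The list of 14 genes tested for double-stranded RNA sensing and editing, the pathway of Ifih1 and Adar, had a median of 0.30, which was 0.16 without Cre-positive replicate 1. Of the 14, 4 had an unadjusted p under 0.05 in edgeR, all higher, against 10.3% of all genes, and DESeq2 called 3 higher, against 3.57%. Ddx58, the gene of the sensor RIG-I, had 23.3, 15.4 and 18.9 CPM in Cre-positive libraries, against 10.3, 13.4 and 10.8 CPM in Cre-negative libraries (log2 fold change 0.74, SE 0.18, edgeR adjusted p = 0.118). Trim25, a ubiquitin ligase that activates RIG-I, had 69.2, 66.8 and 61.9 CPM in Cre-positive libraries, against 49.8, 54.6 and 51.3 CPM in Cre-negative libraries (log2 fold change 0.35, SE 0.07, edgeR adjusted p = 0.101). Neither gene overlapped between the groups. Of 9 myeloid markers tested, 1 was called higher in edgeR, Lyz2 (1.33, adjusted p = 0.0368), and 1 lower, H2-Ab1, with a median of -0.07; all 10 on the list summed to 134, 119 and 91.7 CPM in Cre-positive libraries, against 174, 141 and 134 CPM in Cre-negative libraries. The part of these cells in the sensing and interferon lists was not tested. Without Cre-positive replicate 3, edgeR called Trim25 (0.39, adjusted p = 0.0319) and Eif2ak2, the gene of the kinase PKR (0.60, adjusted p = 0.0133; named after its values were seen), in a fit that called 422 genes against 80 with all libraries. The other fits without 1 library called neither, with edgeR adjusted p of 0.133 to 0.377 for Trim25 and 0.145 to 0.391 for Eif2ak2. For Mavs, the adaptor shared by these sensors, the log2 difference was -0.12 (edgeR adjusted p = 0.475, SE 0.09).

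On the DNA side, the 13 cytosolic DNA sensing genes had a median of 0.006, which was -0.11 under scaling by total count, -0.07 without Cre-positive replicate 1 and -0.06 without Cre-positive replicate 3. Cgas, the gene of the sensor cGAS, had a log2 difference of 0.13 (edgeR adjusted p = 0.685, SE 0.16), and Tmem173, the gene of STING, had -0.08 (edgeR adjusted p = 0.762, SE 0.12); neither passed. Of the 13, 5 had an unadjusted p under 0.05 in edgeR (2 higher and 3 lower), against 18.8% of all genes, and DESeq2 called 1, against 5.39%. That gene was Ifi204, a DNA-binding interferon-inducible gene. Ifi204 had 9.496, 6.68 and 9.69 CPM in Cre-positive libraries, against 4.45, 5.34 and 5.56 CPM in Cre-negative libraries, without overlap (log2 fold change 0.75, SE 0.18, edgeR adjusted p = 0.124). Xrcc6, the gene of Ku70, had -0.35 (SE 0.10, edgeR adjusted p = 0.152).

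Interferon output was read from 30 interferon-stimulated genes, of which edgeR and limma-voom called 0 and DESeq2 called 1 higher, against 3.57% of all genes. In edgeR 6 had an unadjusted p under 0.05, all higher, against 10.3% of all genes. A log2 fold change above 0 was found for 25 of the 30, against 49% of all genes, and the median was 0.40. The median was 0.09 without Cre-positive replicate 1 and 0.60 without Cre-positive replicate 3. Bst2, which encodes tetherin and is the gene that DESeq2 called, had 23.0, 13.6 and 12.8 CPM in Cre-positive libraries, against 8.14, 10.8 and 10.05 CPM in Cre-negative libraries (log2 fold change 0.77, SE 0.24, edgeR adjusted p = 0.179). Rtp4 had 6.70, 3.01 and 3.75 CPM in Cre-positive libraries, against 1.44, 2.55 and 2.17 CPM in Cre-negative libraries (log2 fold change 1.14, SE 0.35, edgeR adjusted p = 0.179). Both stayed above the Cre-negative range in every Cre-positive library, with replicate 1 the highest; without that library the log2 difference was 0.45 for Bst2 and 0.72 for Rtp4. Isg15, the ubiquitin-like modifier, had 14.5, 8.85 and 5.70 CPM in Cre-positive libraries, against 6.26, 8.75 and 8.03 CPM in Cre-negative libraries. Its log2 difference of 0.34 (edgeR adjusted p = 0.587, SE 0.32) turned to -0.08 without Cre-positive replicate 1. With sex as a covariate, the log2 difference was 0.06 for Isg15, 0.63 for Bst2 and 0.99 for Rtp4.

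Of 12 other genes of human type I interferonopathies, edgeR and limma-voom called 0. In edgeR 2 had an unadjusted p under 0.05, Ddx58 and Stat2, both higher, against 10.3% of all genes. DESeq2 called 1 higher, Ddx58, against 3.57% of all genes. Both genes were already counted above, Ddx58 in the RNA sensing list and Stat2 among the interferon-stimulated genes. The median was 0.24, and it was 0.07 without Cre-positive replicate 1 and 0.12 without Cre-positive replicate 3. Stat2, a transcription factor of the interferon response, had 33.3, 23.4 and 23.3 CPM in Cre-positive libraries, against 20.2, 20.7 and 18.7 CPM in Cre-negative libraries, without overlap (log2 fold change 0.43, SE 0.15, edgeR adjusted p = 0.209). Its log2 difference was 0.23 without Cre-positive replicate 1. Among interferon and receptor genes 6 of 13 were tested; all 7 interferon genes on the list, Ifnb1 and Ifnk included, were below the filter on low counts. For the 6 receptor genes edgeR, limma-voom and DESeq2 called 0, 0 had an unadjusted p under 0.05, and the median of 0.11 was -0.009 under scaling by total count and -0.01 without Cre-positive replicate 3. The smallest p in this list were those of Ifngr1 (log2 fold change 1.09, SE 0.52, edgeR adjusted p = 0.309, and 0.16 without Cre-positive replicate 3), with 83.7 CPM in Cre-positive replicate 3 against 25.6 and 19.1 CPM in Cre-positive replicates 1 and 2 and 17.6 to 21.6 CPM in Cre-negative cells, and of Il10rb (0.29, SE 0.16, edgeR adjusted p = 0.374), which was 0.11 without that library.

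**Figure D5:**
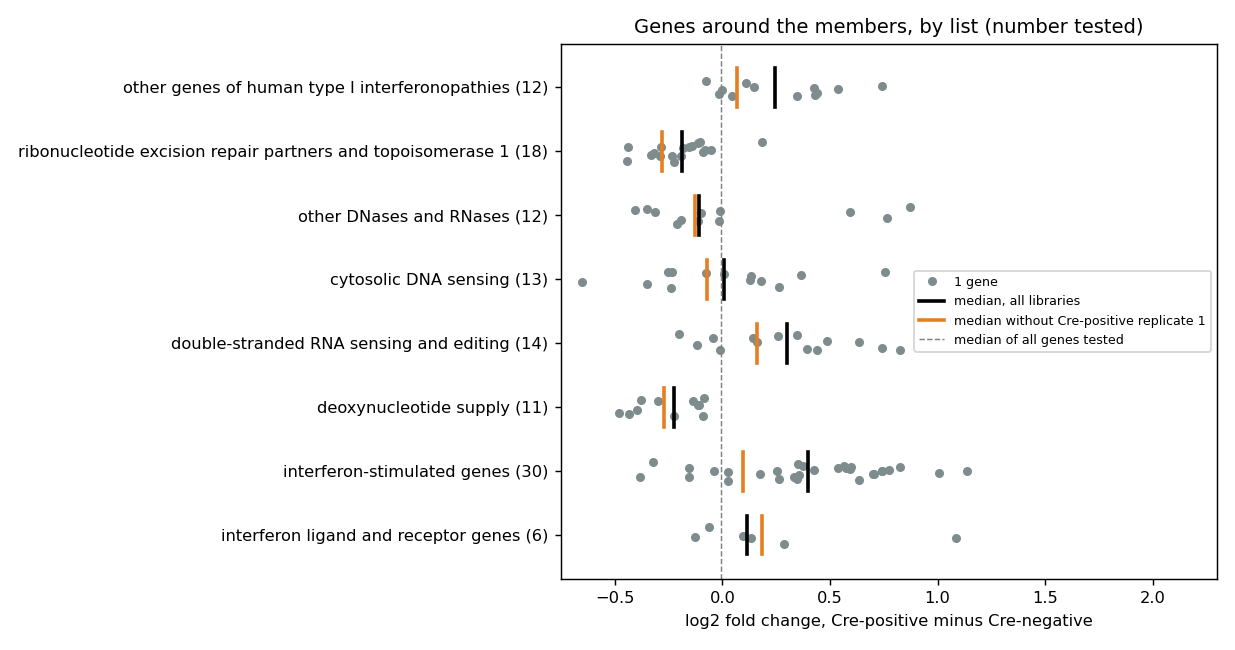
Log2 fold change (Cre-positive minus Cre-negative) of each tested gene in 8 lists around the members, as grey points spread vertically for visibility, with the number tested after each list name; black bars mark the median over all libraries, orange bars the median without Cre-positive replicate 1, and the dashed line the median of all genes tested. The median of the interferon-stimulated genes moves to 0.09 without replicate 1, against 0.40 with it, while the repair and deoxynucleotide lists stay below 0.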

How the data were processed

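RNA was sequenced from 3 Cre-positive and 3 Cre-negative libraries, and the labels put each library in its group; replicates are numbered in the order of the sample list. The authors deposited raw counts per gene, with no normalization, in 1 table for all libraries, per the file headers. The submitters' processing notes name GSNAP, featureCounts and the build mm10, without versions or the strand setting; the libraries were made with a directional kit, per the labels' protocols. Of 38924 genes, 37607 were matched to a symbol.

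From these counts, genes were kept by filterByExpr (minimum count 10), given TMM scaling factors and tested two-sided in R 4.3.3 by edgeR 4.0.16 (quasi-likelihood F-test), with Benjamini-Hochberg adjustment over 15525 genes and a threshold of 0.05. Log2 differences subtract Cre-negative from Cre-positive; SE and 95% intervals come from that fit. CPM and RPKM were computed here from the scaled library sizes. A floor of 3 counts was 0.0922 to 0.143 CPM, for counting error only. The common biological coefficient of variation was 0.172. Where nothing says that replicates are separate animals, p-values measure only the spread between these libraries. Within each group no library was present more than once (chi-square per degree of freedom between libraries of a group, 9.18 to 70.9). Pairs across the groups were not compared in this way. Alternatives were DESeq2 1.42.0, limma-voom (limma 3.58.1), other scalings and filters, a robust fit, sex as a covariate, and each library left out; the length of the main transcript was added after seeing the data. Exon overlaps were found with bedtools 2.31.1 from the exon coordinates of the table; exons on the opposite strand cover 9.41% of Plppr3, 7.69% of Xrcc6 and 5.79% of Lig1, and other genes on the same strand share 14.9% of Il10rb. Promoter windows are from RefSeq (GRCm38.p6), the Trex1 reading frame from GENCODE M21 (GRCm38).

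The members and the gene lists were chosen with earlier results of these data known. The genes named were the 8 members, the genes past the threshold and otherwise the 2 with the smallest p of each list, Trex2, Cgas, Tmem173, Mavs and Isg15, the 5 genes most like Rnaseh2b, and the genes that overlap or flank a member, of which those with values are the ones with an unadjusted p under 0.05 or next to Rnaseh2b.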

Additional observations from a re-analysis of the deposited data

How the results depend on the processing

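The count of genes past the threshold, 80, depended on the setting. It was 41 with scaling by total count (27 higher and 14 lower), 837 with DESeq2 (554 higher and 283 lower), 142 with no filter beyond 1 count, and 40 with sex as a covariate; DESeq2 size factors, limma-voom, the robust fit and a minimum mean of 1 CPM stayed within 1.5 times. Leaving out 1 library gave 0 to 422 genes, with 422 without Cre-positive replicate 3, 25 without Cre-positive replicate 1, 7 without Cre-positive replicate 2, 0 without Cre-negative replicate 1 (1844 genes at an unadjusted p under 0.05) or 2 (2085), and 1 without Cre-negative replicate 3. Rnaseh2b had a log2 fold change between -2.55 and -2.19 in these fits and kept its call in all other settings run. Signs turned, without any call, for Atrip (-0.092 with total count scaling; -0.013 to 0.10 over the fits without 1 library), Rnaseh1 (-0.034 with total count scaling), Rnaseh2c (0.019 with sex as a covariate; -0.17 to 0.039 without 1 library, highest without Cre-negative replicate 3), Samhd1 (-0.18 to 0.036, highest without Cre-positive replicate 3), Ifih1 (-0.056 to 0.56) and Isg15 (-0.075 to 0.61), both lowest without Cre-positive replicate 1, and Tmem173 (-0.12 to 0.0046, highest without Cre-negative replicate 3); the cause was not tested. Rnaseh2a stayed between -0.25 and -0.06 and Adar between 0.21 and 0.36 over all 14 alternatives. No paired analysis was possible because the groups share no replicate number in the labels. At these depths, a gene at 0 counts in a library may have an expected count of up to 3. This bound does not cover Trex1, whose counted exon bases are all shared with Atrip.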
